A study of Mus musculus with 30 samples.

Results

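Cdkn1a and 9 genes of the p53 pathway were followed in platelet RNA and PBMC RNA of mice inoculated with melanoma cells. The 10 genes are Cdkn1a, Mdm2, Ccng1, Trp53inp1, Zmat3, Phlda3, Sesn2, Bbc3, Aen and Trp53, out of the 54532 Ensembl genes of the count tables. They were chosen by a measured value: Cdkn1a was selected on its higher CPM, counts scaled to a common library total, in platelets of S group than in the other platelet libraries, and the other 9 were added because they are p53 targets or p53 itself. What Cdkn1a shows in platelets of S group is therefore given as a description with no test. The question addressed was whether the other genes follow Cdkn1a.

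All mice were female C57BL/6 mice aged 6 to 8 weeks, without any engineered allele. B16F10, a mouse melanoma cell line, was injected subcutaneously into the right flank at 2000 cells per mouse in S group (suboptimal, labelled early tumor, without a visible tumor at autopsy) and at 100000 cells per mouse in O group (optimal, labelled large tumor), and C group (ctrl) received 100 μl HBSS without cells. Blood was taken on day 14, and platelets and PBMCs, the mononuclear white cells of blood, were separated from it by centrifugation. Each tissue and group gave 5 libraries, 30 in all, and each library was made from RNA pooled over 3 to 10 mice by the labels, with 3 to 5 mice in O group and 10 mice in platelets of S group. P values therefore measure the spread between pools, not between single mice. In the study most mice given 2000 cells stayed without a visible tumor during follow-up. It states that pools of S group must have held mice that might never form one.

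The protein p53, encoded by Trp53, is a transcription factor that is held at a low level by the ubiquitin ligase Mdm2 and accumulates after DNA damage and other stress. It then drives a set of target genes, of which Cdkn1a is a classical one: its product, p21, binds cyclin-dependent kinases and PCNA and stops the cell cycle. Other targets feed back on p53, promote apoptosis or adjust metabolism, and Cdkn1a can also be induced without p53. Platelets have no nucleus, and their RNA is largely inherited from megakaryocytes, the bone marrow cells that shed them.

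Cdkn1a (ENSMUSG00000023067) lies on chromosome 17 from 29090976 to 29100727 on the plus strand of GRCm38, and RefSeq places starts of its transcripts at 29090979 and 29093769. The bases before both starts are shown because p53 acts through its binding motif, a pair of half-sites of 10 bases each. The starts also differ in exact matches to it. Both are read from RefSeq promoter windows on GRCm38.p6, and the capitals mark exact matches to the p53 half-site, which reads alike on both strands. A half-site here means such an exact match, and sites with a mismatch were not searched for.
Cdkn1a, upstream start, chr17:29090729-29090978, plus strand: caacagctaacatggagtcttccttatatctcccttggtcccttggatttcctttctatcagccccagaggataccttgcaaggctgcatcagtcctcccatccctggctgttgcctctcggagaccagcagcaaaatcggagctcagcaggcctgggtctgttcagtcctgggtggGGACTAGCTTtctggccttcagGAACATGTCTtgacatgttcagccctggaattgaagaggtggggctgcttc
Cdkn1a, downstream start, chr17:29093519-29093768, plus strand: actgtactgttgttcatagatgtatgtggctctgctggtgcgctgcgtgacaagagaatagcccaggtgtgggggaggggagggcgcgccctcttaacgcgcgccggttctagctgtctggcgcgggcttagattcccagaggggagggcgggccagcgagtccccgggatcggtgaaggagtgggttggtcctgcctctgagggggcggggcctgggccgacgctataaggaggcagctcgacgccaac

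The upstream window held 2 exact half-sites, beginning 73 and 51 bases before the start and separated by 12 bases, and the downstream window none. The stretch after the second, tgacatgttc, carries a mismatch and is not marked. Which of these stretches p53 binds was not tested. Among 32851 RefSeq windows reaching from 250 bases before to 50 bases after a start, 8.36% held at least 1 half-site and 0.0731% held 2 of them at most 13 bases apart. Windows were found for 8 of the 10 genes, all but Trp53inp1 and Zmat3. Besides Cdkn1a, 4 genes had a single exact half-site, which are set side by side here to show how they differ in their letters.
Mdm2, chr10:117710935-117710944: GAACTTGCCT
Ccng1, chr11:40755462-40755471: GGGCAAGCCT
Aen, chr7:78895937-78895946: GGGCTTGTCC
Trp53, chr11:69580284-69580293: GGACTTGCCC
The windows of Bbc3, Phlda3 and Sesn2 held no exact match. A window without one can still hold a site with a mismatch. These are matches of letters in short windows, and the counts per gene do not tell which start a transcript used.

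The deposited counts summed to between 12259036 and 25360080 per platelet library and to between 13390983 and 15973449 per PBMC library. All 10 genes passed edgeR's filter on low counts in each comparison made here. Levels are CPM scaled with TMM factors, which set the bulk of the genes equal between libraries, within a tissue. Replicate 1 of O group stood apart: its TMM factor was 0.553 in platelets and 0.551 in PBMCs, and 7 erythroid marker genes took 41.2% of its counts in platelets and 27.2% in PBMCs. In the other platelet libraries they took 4.18% to 28.7%. In PBMCs they took 3.38% to 9.78% in C group, 3.35% to 8.96% in S group and 6.76% to 20.3% in the other O group libraries. Replicate 3 of S group in PBMCs also stood apart, with 32900 genes that had a count against 20540 to 22991 in the other PBMC libraries. In platelets all 10 platelet and megakaryocyte markers were detected, and their summed level was 9090 to 50000 CPM against 817 to 11300 CPM in PBMCs. In these bulk samples fewer cells of a type and less RNA per cell cannot be told apart.

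In platelets, Cdkn1a was highest in S group. It was 18.6, 21.8, 32.4, 18.6 and 12.3 CPM in replicates 1 to 5 of S group. The C group libraries had 8.12, 3.59, 4.85, 5.43 and 5.87 CPM, and the O group libraries 14.9, 9.85, 4.41, 6.15 and 7.03 CPM. The S group libraries all lay above every C group library, whereas replicate 1 of O group lay above replicate 5 of S group. The means were 20.7 ± 7.36 (SD, n = 5) in S group, 8.47 ± 4.11 in O group and 5.57 ± 1.66 in C group. The fitted log2 fold change was 1.88 ± 0.26 (SE), or 3.68-fold, for S group against C group and 1.30 ± 0.32, or 2.46-fold, against O group.

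On the scale of CPM per library total, without TMM factors, the groups of Cdkn1a in platelets lay further apart. S group had 20.5, 20.6, 26.9, 25.6 and 15.4 CPM, C group 5.40, 3.58, 5.44, 5.36 and 5.95 CPM, and O group 8.25, 8.93, 4.81, 6.12 and 11.6 CPM. On this scale S group overlapped with neither of the other groups. The counts behind these values were 237 to 449 reads in S group, 82 to 137 in C group and 59 to 230 in O group. A gene model of type TEC (to be experimentally tested) on the opposite strand, AC167363.2, overlaps Cdkn1a and took 436 reads over the 30 libraries, against 17161 for Cdkn1a, and the sources used here do not state whether counting used strand.

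**Figure D1:**
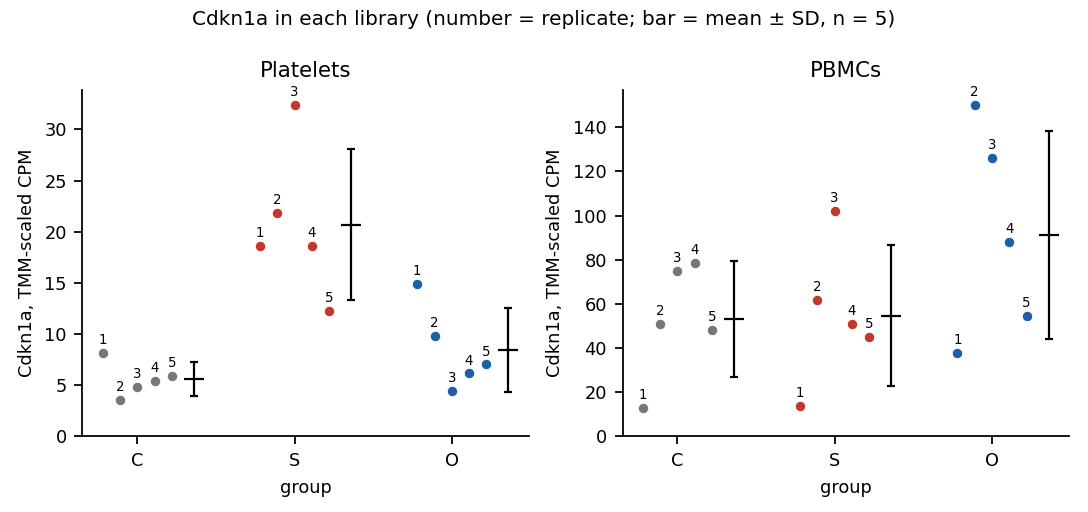
Cdkn1a in each library, as TMM-scaled CPM (vertical axis from 0), by group (horizontal axis), in platelets (left) and PBMCs (right). Points are libraries with their replicate number, and bars give the mean ± SD of 5 libraries. The platelet libraries of S group sit between 12.3 and 32.4 CPM, above all C group libraries, while the PBMC groups overlap and replicate 1 is lowest in each of them.

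Markers of blood cells also differed between platelets of S group and of C group, with most lymphocyte markers higher and most red cell and platelet markers lower in S group. In O group against C group, where the means of Cdkn1a were 8.47 and 5.57 CPM, 6 of 6 T cell, 4 of 5 NK cell and 5 of 6 B cell markers were lower. All 6 T cell markers and all 5 NK cell markers were detected and had higher means in S group than in C group, and 5 of the 6 B cell markers did. The summed level of the T cell list was 92.5 to 161 CPM in S group, 77.6 to 104 CPM in C group and 51.6 to 83.8 CPM in O group. For the NK cell list it was 47.4 to 124 CPM, 44.2 to 77.8 CPM and 27.9 to 64.3 CPM, and for the B cell list 591 to 1250 CPM, 548 to 653 CPM and 324 to 639 CPM, in the same order. Of the 6 monocyte and macrophage markers, 5 had higher means in S group than in C group, with sums of 1050 to 2670 CPM in S group, 1450 to 3290 CPM in C group and 590 to 2270 CPM in O group. All 7 erythroid markers had lower means in S group than in C group (median log2 ratio -0.61) and than in O group (-0.62). Of the 10 platelet and megakaryocyte markers, 9 were lower than in C group (-0.23) and all 10 lower than in O group (-0.33). Replicate 5 of S group had the highest T cell and B cell sums of all platelet libraries and the lowest Cdkn1a of its group. The correlation of Cdkn1a with the T cell, NK cell and B cell sums over the 15 platelet libraries, which share TMM scaling, was 0.40, 0.45 and 0.23, and with the group means removed -0.32, -0.15 and -0.53. For the erythroid and the platelet sums it was 0.16 and 0.15, and with the group means removed 0.50 and 0.48. In CPM per library total, Cdkn1a in platelets stood at 8.90% of its PBMC level in C group and at 36.8% in S group, while the T cell sum stood at 10.8% and 17.9%, the NK cell sum at 14.3% and 22.9%, the B cell sum at 22.2% and 32.0%, and the monocyte and macrophage sum at 31.6% and 35.6%. The part of these cells in the difference was not tested.

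The other 9 genes did not move as a group in platelets of S group. In S group against C group, 4 of the 9 had a fold change above 0 and 5 below, with a median log2 fold change of -0.02, against -0.01 over all genes tested. At an unadjusted P under 0.05, the threshold of the study, 2 of the 9 were counted, Bbc3 and Aen, both higher, and with Cdkn1a, which was chosen for this difference, 3 of the 10. Over all 13268 genes tested 6.42% were counted. None of the 9 passed a Benjamini-Hochberg adjusted P of 0.05 over all genes with edgeR's quasi-likelihood test. Besides Cdkn1a, no gene of the 10 had groups that did not overlap, which 1.23% of all genes had.

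Bbc3 (chromosome 7, 16308393 to 16318205, plus strand) encodes Puma, a BH3-only protein that triggers apoptosis at mitochondria. Its platelet level was 20.2, 20.9, 25.8, 17.6 and 14.7 CPM in S group, against 18.0, 12.5, 16.7, 10.6 and 9.86 CPM in C group. In 3 of the 5 S group libraries it was above all of C group, and the other 2 lay within the range of C group. The log2 fold change was 0.54 ± 0.20 (edgeR, adjusted P = 0.746). Without replicate 3 of S group, where Cdkn1a and Bbc3 were both highest, it was 0.43 and no longer counted (adjusted P = 0.81). The call held in the other 15 of 16 alternatives, though Bbc3 passed the adjusted threshold in none.

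Aen (chromosome 7, 78895854 to 78911209, plus strand) encodes a nuclease that takes part in the breakdown of DNA in apoptosis. It had 12.6, 9.85, 9.40, 11.7 and 14.3 CPM in platelets of S group and 8.18, 9.19, 7.91, 8.40 and 9.99 CPM in C group. Its lowest S group libraries fell within the range of C group. The log2 fold change was 0.40 ± 0.17 (edgeR, adjusted P = 0.766), and without replicate 5 of S group it was 0.31 and no longer counted (adjusted P = 0.873). Aen lost the call in 8 of the 16 alternatives run, among them the fit without a filter on low counts and 7 that left out 1 library, namely replicates 1 to 4 of C group and 1, 4 and 5 of S group.

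The regulators of p53 itself gave no counted difference in S group against C group with all libraries, and Ccng1 was counted without replicate 1 of C group, at -0.34 ± 0.13 (edgeR, adjusted P = 0.365). Mdm2 (chromosome 10, 117688875 to 117710758, minus strand) had 28.6 to 36.2 CPM in S group and 31.4 to 35.3 CPM in C group, a log2 fold change of -0.16 ± 0.13 (adjusted P = 0.816). Ccng1 (chromosome 11, 40748552 to 40755311, minus strand), whose product cyclin G1 acts on Mdm2 through a phosphatase, had 30.7 to 34.9 CPM in S group and 32.0 to 44.4 CPM in C group, giving -0.26 ± 0.14 (adjusted P = 0.769). Trp53 (chromosome 11, 69580359 to 69591873, plus strand) had means of 54.7 ± 5.09 and 54.8 ± 7.78 CPM (SD), with -0.02 ± 0.15 (adjusted P = 0.985). The message of p53 is not its usual point of control, which is the stability of the protein.

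The remaining 4 genes likewise missed the threshold in S group against C group. Phlda3 (chromosome 1, 135766119 to 135769136, plus strand), an inhibitor of Akt signalling, ranged from 23.4 to 51.0 CPM in S group and from 16.5 to 43.6 CPM in C group (log2 fold change 0.23 ± 0.26, adjusted P = 0.856). Trp53inp1 (chromosome 4, 11156431 to 11174379, plus strand), a nuclear protein that promotes p53 activity and autophagy, gave -0.19 ± 0.20 (adjusted P = 0.849). Sesn2 (chromosome 4, 132492032 to 132510501, minus strand), a stress protein that restrains mTORC1, gave -0.12 ± 0.22 (adjusted P = 0.925), and Zmat3 (chromosome 3, 32334792 to 32366014, minus strand), an RNA-binding zinc finger protein, gave 0.25 ± 0.19 (adjusted P = 0.807). Without TMM factors the median log2 fold change over all genes was 0.20 in this comparison, and the fold changes of Mdm2, Trp53inp1, Sesn2 and Trp53 turned above 0, to 0.07, 0.04, 0.10 and 0.18, all below that shift.

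**Figure D2:**
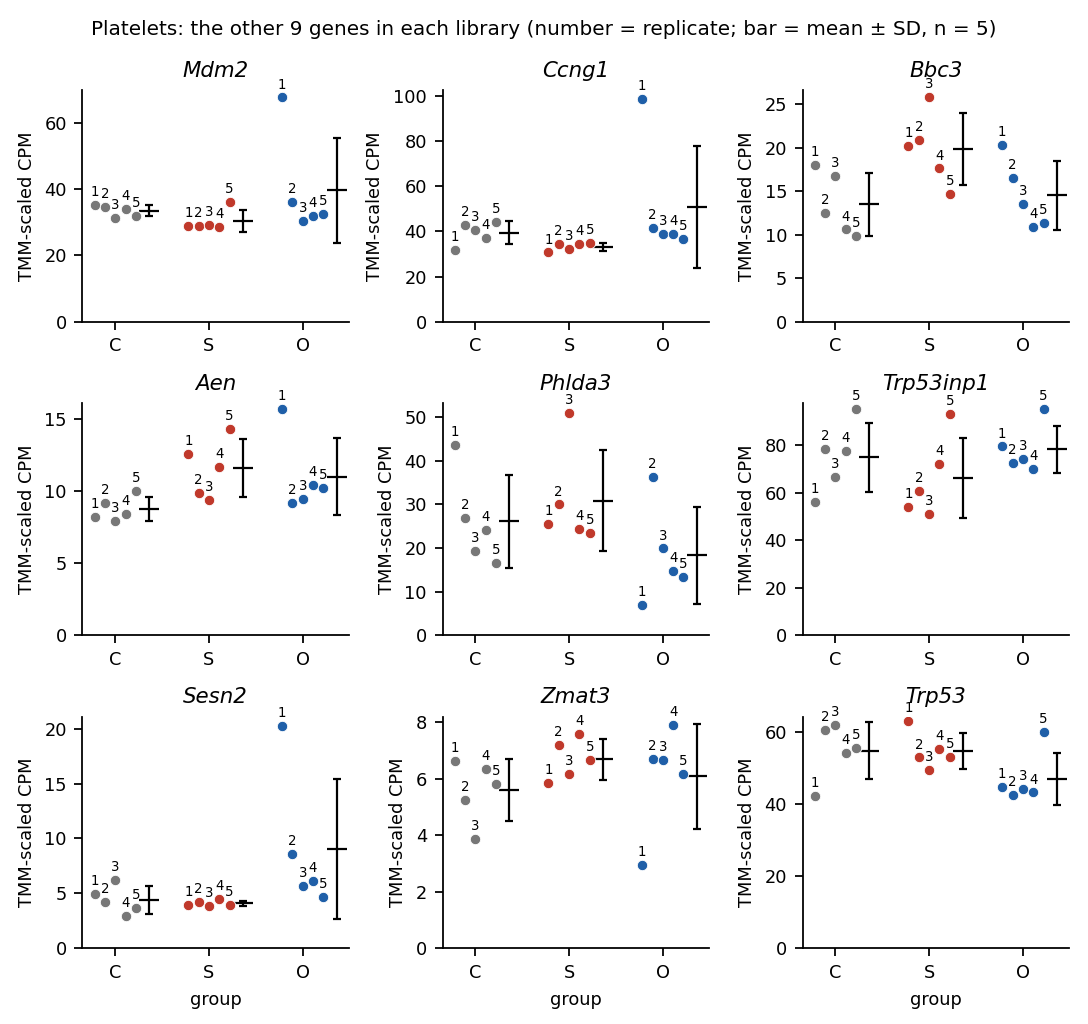
The other 9 genes in each platelet library, as TMM-scaled CPM (vertical axes from 0), by group. Points are libraries with their replicate number, and bars give the mean ± SD of 5 libraries. Replicate 1 of O group is the highest library for Mdm2, Ccng1, Aen and Sesn2 and the lowest for Phlda3 and Zmat3.

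The comparison of platelets of S group with O group shares the S group libraries with the one above. Of the other 9 genes 3 were counted, against 13.9% of the 13306 genes tested, and with Cdkn1a 4 of the 10. Sesn2 and Ccng1 were lower in S group, and Bbc3 and Cdkn1a higher. None of the other 9 genes passed the adjusted threshold, and Cdkn1a is counted here by the way it was chosen. With TMM factors Sesn2 and Ccng1 were also the genes whose groups did not overlap, as 3.56% of all genes did not. Per library total both overlapped, with replicate 4 of S group at 6.15 CPM for Sesn2 and 47.3 CPM for Ccng1 against lowest O group libraries of 6.07 and 37.7 CPM.

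Sesn2 had 20.2, 8.56, 5.68, 6.10 and 4.71 CPM in O group and 3.93, 4.19, 3.89, 4.47 and 3.95 CPM in S group. On this TMM scale every O group library was above every S group library, and replicate 1 of O group was the highest. The log2 fold change was -1.11 ± 0.35 (edgeR, adjusted P = 0.269), and without replicate 1 of O group -0.65 ± 0.20 (adjusted P = 0.212). Ccng1 had 98.9, 41.6, 38.8, 39.0 and 36.5 CPM in O group and 30.7, 34.4, 32.2, 34.3 and 34.9 CPM in S group. Its log2 fold change of -0.61 ± 0.26 (adjusted P = 0.335) was -0.27 ± 0.12 without replicate 1 of O group (adjusted P = 0.319), and -0.35 and no longer counted without TMM factors (adjusted P = 0.964), and it lost the call in 7 of the 16 alternatives. Bbc3, at 20.3, 16.5, 13.5, 10.9 and 11.3 CPM in O group, gave 0.45 ± 0.20 (adjusted P = 0.353) and lost the call in 12 of the 16 alternatives, RLE factors, DESeq2, library totals and the joint fit among them, with its lowest value, 0.32, without replicate 3 of S group (adjusted P = 0.588). Phlda3 had 6.99, 36.4, 19.9, 14.7 and 13.4 CPM in O group and gave 0.74 ± 0.37 (adjusted P = 0.387), and was not counted, but was counted in 3 alternatives, at 0.72 without the filter on low counts (adjusted P = 0.42), at 1.12 without replicate 2 of O group (adjusted P = 0.226) and with the replicate block. Trp53, at 0.20, was counted at 0.33 without replicate 5 of O group (adjusted P = 0.275), and Trp53inp1, at -0.26, at -0.40 without replicate 5 of S group (adjusted P = 0.382). All 7 neutrophil markers had lower means in S group than in O group (median log2 ratio -1.89), with sums of 190 to 329 CPM against 319 to 3480 CPM. All 6 monocyte and macrophage, all 6 T cell, all 5 NK cell and 5 of the 6 B cell markers had higher means (0.66, 0.95, 1.08 and 1.07). Their part was not tested.

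In platelets of O group against C group, 1 of the 10 genes was counted, against 4.79% of the 13270 genes tested, and no gene passed the adjusted threshold. No gene of the 10 had groups that did not overlap, against 0.95% of all genes. The counted gene was Sesn2, with 4.92, 4.19, 6.21, 2.98 and 3.67 CPM in C group, and a log2 fold change of 0.99 ± 0.38 (adjusted P = 0.91). Without replicate 1 of O group it was 0.50 ± 0.26 and no longer counted (adjusted P = 0.954), and the call was also lost without replicate 4 of C group. Cdkn1a gave 0.58 ± 0.32 (adjusted P = 0.91), and 0.31 ± 0.28 without replicate 1 of O group (adjusted P = 0.966), counted in neither. It was counted, at 0.77 and 0.74, without replicate 1 of C group (adjusted P = 0.898) and without replicate 3 of O group (adjusted P = 0.814). Phlda3 gave -0.52 ± 0.38 (adjusted P = 0.91) and was counted, at -0.92, without replicate 2 of O group (adjusted P = 0.601). All 7 neutrophil markers had higher means in O group than in C group, with sums of 319 to 3480 CPM against 143 to 736 CPM, and their part was not tested. The 2 comparisons with C group share the C group libraries.

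**Figure D3:**
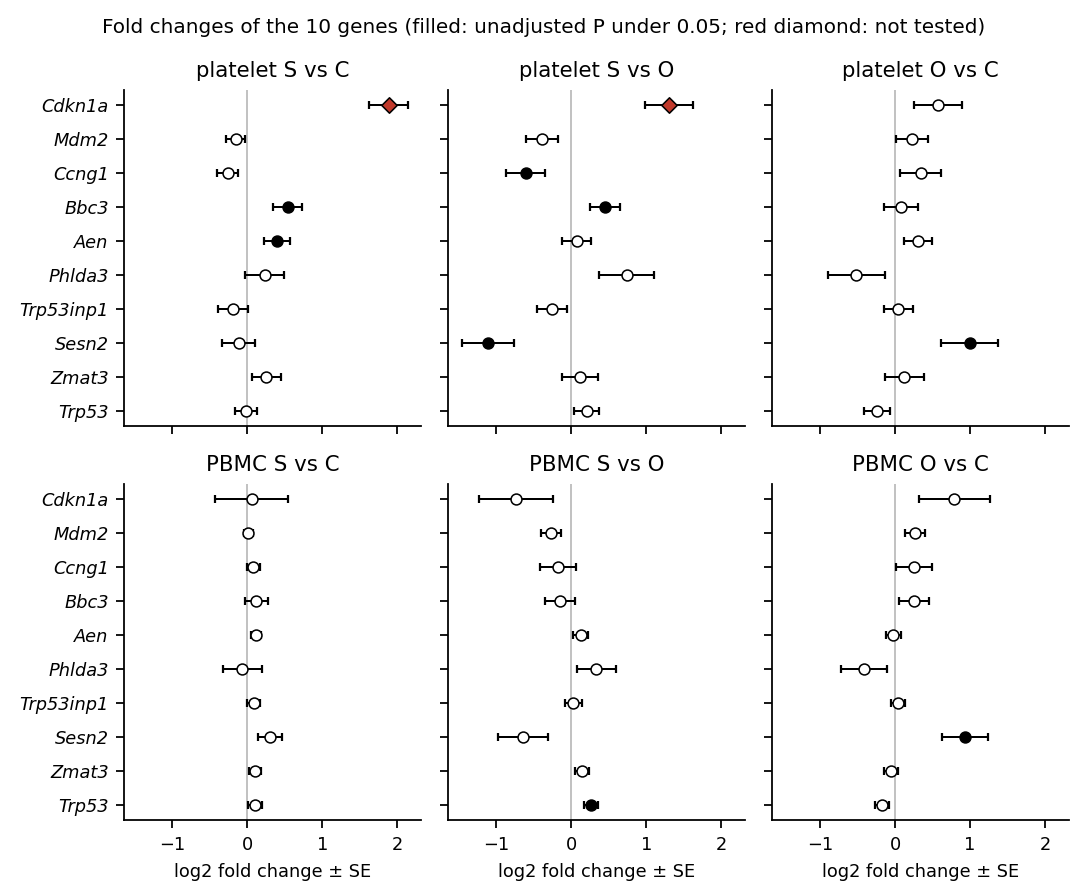
Log2 fold change ± SE (horizontal axis) of the 10 genes (vertical axis) in 3 platelet comparisons (top) and 3 PBMC comparisons (bottom). Filled circles have an unadjusted P under 0.05, open circles do not, and red diamonds are the values of Cdkn1a given without a test. In platelet S vs C Cdkn1a stands at 1.88 and the other genes lie between -0.26 and 0.54.

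Replicate 1 of O group, a pool of 3 mice, had the highest level of Mdm2, Ccng1 and Sesn2 of its group in both tissues. Mdm2 was 67.7 CPM in platelets and 152 CPM in PBMCs, against 30.4 to 36.2 CPM and 91.4 to 99.7 CPM in the other O group libraries. Ccng1 was 98.9 and 128 CPM, against 36.5 to 41.6 CPM and 49.1 to 57.5 CPM. Without TMM factors these levels were closer to the others: Mdm2 was 37.5 and 83.9 CPM in the 2 tissues, against 31.8 to 53.5 CPM in platelets and 74.9 to 101 CPM in PBMCs. Sesn2 and Ccng1 stayed at or near the top, with Sesn2 at 11.2 and 24.3 CPM against at most 7.79 and 23.0 CPM, and Ccng1 at 54.7 and 70.3 CPM against at most 60.4 and 63.4 CPM. Summed neutrophil markers, all 7 detected, were 3480 CPM in this platelet library, against 319 to 602 CPM in the others of the group. In PBMCs they were 5750 CPM in replicate 1 and 5490 CPM in replicate 4, where Mdm2 was 98.5 CPM and Ccng1 55.7 CPM, against 404 to 767 CPM in the other libraries of the group. Their part in these levels was not tested.

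In PBMCs, Cdkn1a did not separate S group from C group. It had 13.6, 61.6, 102, 50.8 and 45.1 CPM in replicates 1 to 5 of S group and 12.9, 51.0, 74.8, 78.4 and 48.2 CPM in C group. The O group libraries had 37.7, 150.0, 126, 88.2 and 54.6 CPM. Replicate 1 was the lowest library in each group. The range of single libraries within a group, from 12.9 to 78.4 CPM in C group, was larger than any distance between group means. That range includes the difference between replicates that the groups share. The means were 54.6 ± 32.0 (SD, n = 5), 53.1 ± 26.2 and 91.2 ± 47.0 CPM in S group, C group and O group.

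None of the 10 genes was counted in PBMCs of S group against C group, where 2.64% of the 15139 genes tested were. Cdkn1a gave a log2 fold change of 0.06 ± 0.49 (edgeR, adjusted P = 1.0). The replicate numbers pair the PBMC libraries of these groups by the check described with the methods, and with the replicate block it was 0.03 ± 0.13 (adjusted P = 0.999). Without replicate 3 of S group, the highest of its group for Cdkn1a, it turned to -0.29 ± 0.48, and without replicate 1 of C group to -0.19 ± 0.41 (adjusted P = 1.0 for both). Without the block Sesn2 came nearest to the threshold, with 0.30 ± 0.17 (adjusted P = 1.0), and its highest library was replicate 4 of S group at 23.2 CPM against 10.8 to 14.2 CPM in C group. Without that library it was 0.10 (adjusted P = 1.0). With the block Aen came nearest, at 0.11 ± 0.06, and Sesn2 gave 0.27 ± 0.15 (adjusted P = 0.999 for both). Replicate 4 of S group also had the highest neutrophil marker sum of S group, 3570 CPM against 345 to 901 CPM, whose part was not tested. Bbc3 and Aen, the genes counted in platelets, gave 0.12 ± 0.15 and 0.11 ± 0.07 (adjusted P = 1.0 for both).

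In PBMCs of S group against O group, 1 of the 10 genes was counted, against 12.2% of the 14686 genes tested. It was Trp53, with 134, 109, 103, 125 and 108 CPM in S group and 109, 89.1, 89.3, 91.6 and 104 CPM in O group. The groups overlapped through replicates 1 and 5 of O group, and the log2 fold change was 0.26 ± 0.10 (edgeR, adjusted P = 0.341), no longer counted without replicate 3 of O group. With the replicate block 2 genes were counted, Trp53 at 0.26 ± 0.07 and Cdkn1a at -0.81 ± 0.20 (adjusted P = 0.34 for both). Without the block Cdkn1a gave -0.74 ± 0.49 (adjusted P = 0.548) and was not counted, but was counted, at -1.10, without replicate 3 of S group (adjusted P = 0.387). Sesn2, at -0.64 ± 0.33 (adjusted P = 0.445), was not counted but was in 6 of 17 alternatives, at -0.62 to -0.84. In this comparison all 7 erythroid, all 7 neutrophil and all 10 platelet markers had lower means in S group (median log2 ratios -2.64, -1.21 and -0.87), and all 6 T cell, all 6 B cell and all 5 NK cell markers higher means (0.36, 0.24 and 0.62). Their part was not tested.

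In PBMCs of O group against C group, 1 of the 10 genes was counted, Sesn2, against 11.9% of the 14726 genes tested. It had 44.1, 18.9, 15.7, 30.3 and 12.0 CPM in O group and 14.2, 13.1, 10.8, 12.0 and 12.6 CPM in C group. Replicates 1 to 4 of O group lay above all of C group and replicate 5 within it. The log2 fold change was 0.93 ± 0.31 (edgeR, adjusted P = 0.345), and 0.61 ± 0.23, still counted, without replicate 1 of O group (adjusted P = 0.433). With DESeq2 Sesn2 passed the adjusted threshold, at 0.94 (adjusted P = 0.0478), and the adjusted P of its other alternatives was 0.127 to 0.642. Cdkn1a gave 0.79 ± 0.47 (adjusted P = 0.516) and was not counted, but was counted, at 0.73 ± 0.30, without replicate 1 of both groups (adjusted P = 0.642). With the replicate block Cdkn1a was also counted, at 0.83 ± 0.25 (adjusted P = 0.403), and so were Sesn2 and Trp53 (0.80 and -0.175). By the check described with the methods, the numbers did not pair all libraries of these groups. All 7 erythroid markers had higher means in O group here, with summed levels of 61200 to 495000 CPM against 29000 to 92400 CPM in C group, and so did all 7 neutrophil markers, with 404 to 5750 CPM against 305 to 1760 CPM. Replicates 1 and 4 of O group were highest both for Sesn2 and for the neutrophil sum, and the part of these cells was not tested. Without TMM factors the median over all genes was -0.37 in this comparison, and Sesn2 gave 0.41 and was not counted (adjusted P = 0.18).

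Between the tissues, Phlda3 and Cdkn1a differed most among the 10 genes. In platelets against PBMCs of C group, 5 of the 10 genes passed an adjusted P of 0.05, where 71.2% of the 14670 genes tested did. With TMM factors Phlda3 gave a log2 fold change of 3.72 ± 0.31 (edgeR, adjusted P = 3.64e-07) and Cdkn1a -2.01 ± 0.38 (adjusted P = 0.000386). Per library total Phlda3 had a mean of 23.6 CPM in platelets and 5.12 CPM in PBMCs, a log2 fold change of 2.20 on that scale, and Cdkn1a 5.15 and 57.8 CPM, or -3.49. Bbc3 and Aen were lower in platelets on both scales, with -0.59 ± 0.19 (adjusted P = 0.0123) and -0.57 ± 0.11 (adjusted P = 0.000541) with TMM factors and -2.06 and -2.02 per library total, and Bbc3 lost the call without any 1 of replicates 2 to 5 of C group in platelets (-0.34 to -0.49), 4 of 15 alternatives. Ccng1 gave 0.70 ± 0.13 (adjusted P = 0.000256) with TMM factors but -0.74 without them, a scaling in which the median over all genes was -1.61, so Ccng1 was higher in platelets only relative to the bulk of the genes. Trp53 gave 0.26 ± 0.13 (adjusted P = 0.101) and did not pass, but passed in 8 of 15 alternatives, with RLE factors, DESeq2 and without any 1 library of C group in platelets at 0.30 to 0.45 and, in the other direction, at -1.18 with library totals. Per kilobase of exon, Phlda3 was the most abundant of the 10 genes in platelets of C group at 16.7 ± 6.81 CPM (SD, n = 5), followed by Trp53 at 13.6 ± 1.92 CPM, from which it did not differ beyond its spread. Cdkn1a was the seventh at 1.57 ± 0.47 CPM in C group and at 5.84 ± 2.07 CPM in S group, and Zmat3 was the lowest at 0.49 ± 0.10 CPM.

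The difference between tissues in the response of S group against C group was 1.84 ± 0.60 on the log2 scale for Cdkn1a, given without a test. Of the other 9 genes, 1 was counted in this interaction, Ccng1, against 6.8% of the 16094 genes tested. Its fold change was -0.26 in platelets and 0.08 in PBMCs, a difference of -0.34 ± 0.15 (edgeR, adjusted P = 0.726), which lost the call in 8 of 25 alternatives. For O group against C group 1 of the 10 was counted, against 5.35% of 15836 genes. It was Aen, at 0.31 in platelets and -0.02 in PBMCs in the separate fits, with a difference of 0.42 ± 0.18 in the joint fit (adjusted P = 0.895), which lost the call in 9 of 25 alternatives. Cdkn1a gave -0.13 ± 0.60 (adjusted P = 0.992) in O group against C group.

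In the wider pathway fold changes also went in both directions in platelets of S group. Of 40 other p53 targets, 37 were tested in S group against C group, 21 with a fold change above 0 and 16 below. Their median log2 fold change was 0.03, against -0.01 over all genes, and 2 were counted, both higher, or 5.41% against 6.42% of all genes. They were Trp53i13, with means of 3.23 ± 0.52 against 1.90 ± 0.49 CPM (SD, n = 5) and a log2 fold change of 0.74 ± 0.25 (adjusted P = 0.746), and Sulf2, an enzyme that trims heparan sulfate, with 0.74 ± 0.30 (adjusted P = 0.752). Of the 14 tested of 18 regulators and relatives of p53, the 5 tested of 6 other CDK inhibitors and the 10 tested of 11 CDKs, cyclins and PCNA that p21 binds, none was counted. Their median log2 fold changes were 0.11, 0.00 and -0.03.

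**Figure D4:**
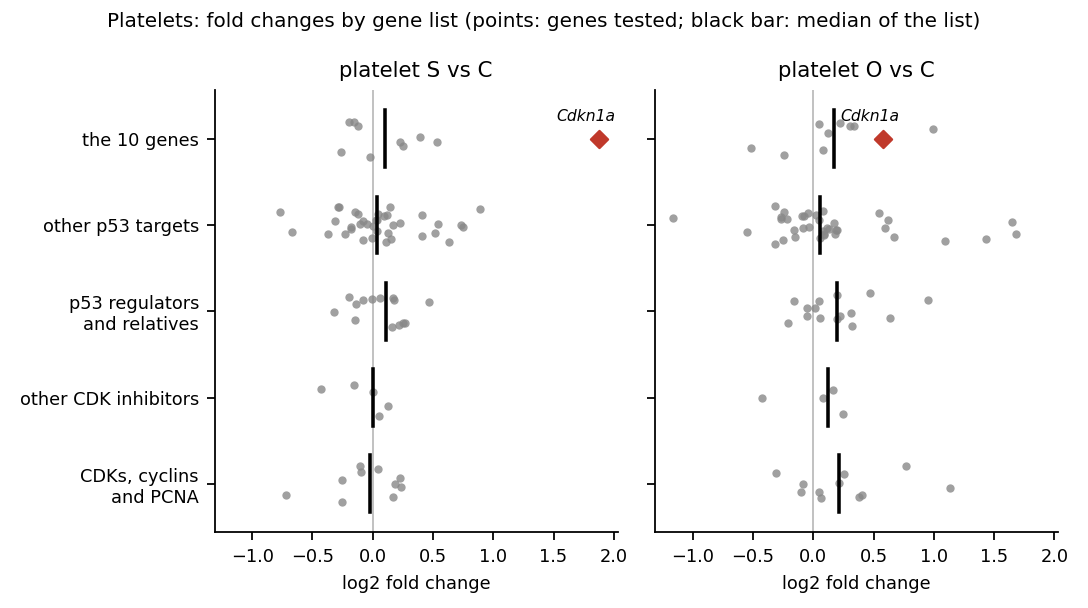
Log2 fold changes (horizontal axis) of the genes tested in each list (vertical axis; vertical positions within a list carry no meaning) in platelets of S group (left) and O group (right) against C group. The black bar is the median of the list, and Cdkn1a is the red diamond. In platelet S vs C Cdkn1a, at 1.88, lies outside the range of the other p53 targets, whose median is 0.03.

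The counted genes of these lists went in both directions in platelets of S group against O group. In platelets of O group against C group they were all higher. In S group against O group 6 of 34 other p53 targets were counted, 3 higher and 3 lower, or 17.6% against 13.9% of all genes. Apaf1, which assembles the apoptosome, had 18.1 ± 3.75 CPM in S group and 26.6 ± 3.21 CPM in O group and gave -0.57 ± 0.19 (adjusted P = 0.279), while Sulf2 gave 1.00 ± 0.33 (adjusted P = 0.279) and Trp53i13 0.81 ± 0.28 (adjusted P = 0.283). In O group against C group 1 of 37 was counted, Apaf1, with 0.54 ± 0.14 (adjusted P = 0.91) and groups that did not overlap, or 2.70% against 4.79% of all genes. Of the regulators, none of 14 was counted in S group against O group and 1 of 15 in O group against C group, Ep300, an acetyltransferase that acts on p53, with 0.63 ± 0.22 (adjusted P = 0.91), or 6.67% of this list. No gene of the list of other CDK inhibitors or of the list of CDKs, cyclins and PCNA that p21 binds was counted in any of the 3 platelet comparisons.

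In PBMCs 1 of 36 other p53 targets was counted in S group against C group, the death receptor gene Tnfrsf10b, with 0.46 ± 0.19 (adjusted P = 1.0), or 2.78% against 2.64% of all genes. In S group against O group 3 of 37 were counted, or 8.11% against 12.2% of all genes, and in O group against C group 6 of 36, 4 higher and 2 lower, or 16.7% against 11.9%. Gadd45a, a growth arrest gene, gave 2.61 ± 0.87 in O group against C group (adjusted P = 0.346), with 120 ± 174 CPM in O group and 19.5 ± 7.80 CPM in C group, so that its spread over libraries exceeded its mean. Fdxr, a mitochondrial reductase, gave -0.29 ± 0.10 (adjusted P = 0.346) and Pidd1, a death domain protein, -0.27 ± 0.10 (adjusted P = 0.377). The cyclin and CDK list had 2 of 11 genes counted in S group against O group (18.2%) and 3 of 11 in O group against C group (27.3%), in the latter Cdk4 at -0.22 ± 0.08 (adjusted P = 0.346), Ccnd2 at -0.23 ± 0.10 (adjusted P = 0.392) and Ccna2 at 1.59 ± 0.71 (adjusted P = 0.412). Of the regulators, Hipk2, a kinase of p53, was counted in both, with 0.72 ± 0.30 in O group against C group (adjusted P = 0.386), and Ep300 in O group against C group with 0.29 ± 0.09 (adjusted P = 0.339). None of the PBMC genes of these lists passed the adjusted threshold, and no other CDK inhibitor was counted.

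Over all 15 platelet libraries, Bbc3 followed Cdkn1a more closely than any other gene of the 10. Pearson's r of their log2 CPM was 0.80 and Spearman's rho 0.76. Among 13877 genes Bbc3 ranked second by r, after Elf3, an epithelial transcription factor at a mean of 1.19 CPM in S group (r = 0.80), and before Rhbdf1 (0.79), Kif5c (0.78) and Map6 (0.77). With the group means removed r of Bbc3 was 0.68, without the 2 libraries farthest from the median of Cdkn1a, replicates 2 and 3 of S group, also 0.68, and without replicate 1 of O group 0.79. Aen had r = 0.46, and 0.05 with the group means removed, but without replicates 2 and 3 of S group its r was 0.73, above that of Bbc3. The other 7 genes lay between -0.50 for Trp53inp1 and 0.27 for Phlda3. Without replicate 1 of O group several of these moved far, Ccng1 from -0.12 to -0.74, Mdm2 from -0.02 to -0.51 and Phlda3 from 0.27 to 0.54. These correlations describe libraries that share TMM scaling and group, and Cdkn1a was chosen for its group pattern.

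**Figure D5:**
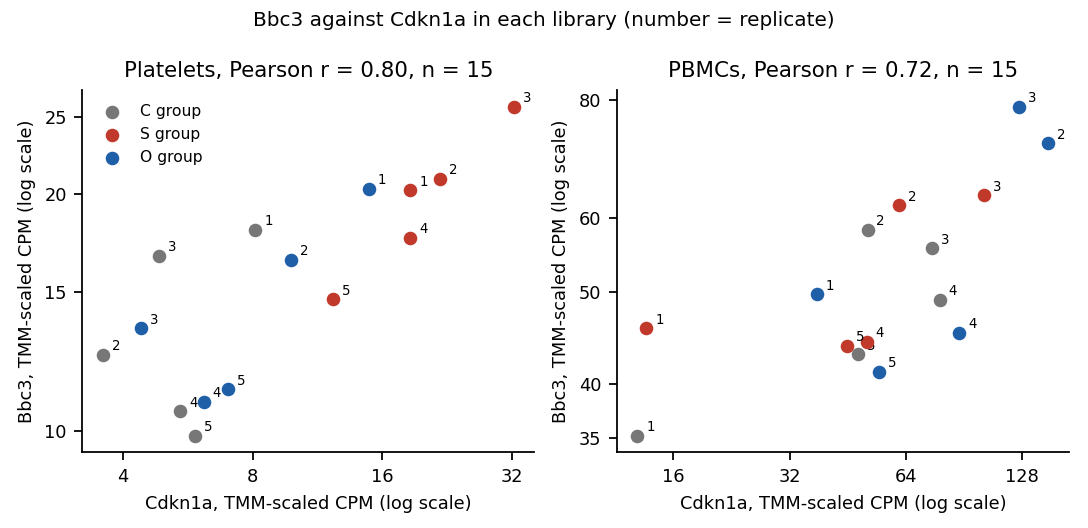
Bbc3 (vertical axis) against Cdkn1a (horizontal axis) in each library, as TMM-scaled CPM on log axes, in platelets (left) and PBMCs (right). Colours mark the groups and numbers the replicates. In platelets the S group libraries lie to the right of all C group libraries, replicate 1 of O group, at 14.9 CPM, lies to the right of replicate 5 of S group, and replicates 2 and 3 of S group are the highest on Bbc3, at 20.9 and 25.8 CPM. Pearson's r is 0.80 in platelets and 0.72 in PBMCs.

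In the 15 PBMC libraries Bbc3 also went with Cdkn1a, with r = 0.72, rho = 0.69 and r = 0.71 with the group means removed, while ranking 734 of 15397 genes. The genes most like Cdkn1a there were Gm15337 (0.97), Cd14, the monocyte receptor for lipopolysaccharide (0.96), Gm17024 (0.96), Plaur, the urokinase receptor (0.95), and Per1, a circadian clock gene (0.95). Trp53 went against Cdkn1a, with r = -0.86, rho = -0.86 and r = -0.79 without the 2 libraries farthest from the median, replicate 1 of C group and of S group. Aen, Zmat3, Ccng1, Phlda3 and Trp53inp1 also had negative r, at -0.65, -0.50, -0.45, -0.44 and -0.34, while Mdm2 had 0.19 and Sesn2 0.06. Without replicate 1 of O group r was 0.80 for Mdm2 and -0.81 for Ccng1. Replicate 1 of each group, lowest for Cdkn1a, had the highest Trp53 level of its group, at 124, 134 and 109 CPM in C group, S group and O group.

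Mdm2, Ccng1 and Sesn2 varied together over the platelet libraries mainly through replicate 1 of O group. Their pairwise r were 0.90 for Mdm2 and Ccng1, 0.83 for Ccng1 and Sesn2 and 0.81 for Mdm2 and Sesn2. Without that library they were 0.38, 0.32 and 0.20. In PBMCs r of Mdm2 and Ccng1 was 0.71 with the library and -0.77 without it.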

How the data were processed

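Platelet and PBMC RNA (poly-A libraries, Illumina) gave 30 libraries, grouped by title and source name (platelet samples carry PBMC in another tag). The authors aligned reads with HISAT2 2.0.5 and counted them per gene with featureCounts 1.5.0-p3, and the deposited values are raw counts. The submitters' processing notes name the build mm9, but 650 of 671 genes in the study's own gene tables start and end as in GRCm38, whose GENCODE M21 positions, names and exon lengths are used; 54409 of 54532 identifiers matched. DESeq2 1.16.1 is the authors' test.

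Here each pair of groups was fitted with edgeR 4.0.16 (R 4.3.3, limma 3.58.1) after filterByExpr and TMM, with a two-sided quasi-likelihood F test and Benjamini-Hochberg adjustment over all genes tested; tissue interactions used all libraries of both tissues and groups. A standard error is the log2 fold change divided by the square root of F. Genes were counted at the study's unadjusted P of 0.05, and at the adjusted P between tissues. The members and lists were chosen with earlier results of these data known. Named genes are the 10 members, up to 3 genes with the smallest P of each list and comparison, and the 5 genes most like Cdkn1a by Pearson's r of log2 CPM (prior count 2). Alternatives were RLE factors, no filter, DESeq2 1.42.0, a joint fit of all 3 groups, a replicate block, leaving out each library and, added after seeing the data, library totals and leaving out replicate 1 of both PBMC groups. For DESeq2, whose parametric dispersion trend failed in 1 comparison, the local one replaced it.

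The pairing of libraries by replicate number was checked by correlating deviations from the group means. Every pair exceeded 0.1 in PBMC S vs C (0.208 to 0.514) and PBMC S vs O (0.102 to 0.349), and not in the other comparisons. The methods were tested on simulated data. The study gives pools of 9 and 11 mice for 2 platelet libraries of S group that the labels give as 10. Promoter windows come from RefSeq. No 2 libraries were duplicates (r of log2 CPM at most 0.997).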

Additional observations from a re-analysis of the deposited data

Results flagged for a closer look

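For each of the 10 genes and each group of 5 libraries, the highest and the lowest library were compared with the others by Dixon's test, and 13 of 60 gene and group combinations (21.7%) had a library that stood apart. Chance flags about 1 in 20 groups, and 8 of the 13 were replicate 1 of O group. In that replicate Mdm2 was 67.7 CPM in platelets and 152 CPM in PBMCs, Ccng1 98.9 and 128 CPM, Aen 15.7 and 38.6 CPM, Sesn2 20.2 CPM in platelets and Phlda3 5.95 CPM in PBMCs, each the highest of its group. In S group the libraries apart were replicate 5 for platelet Mdm2 at 36.2 CPM, replicate 3 for platelet Phlda3 at 51.0 CPM, replicate 2 for PBMC Zmat3 at 19.9 CPM and replicate 4 for PBMC Sesn2 at 23.2 CPM. Trp53 in platelets of O group stood apart in replicate 5, at 59.9 CPM.

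The response differed between platelets and PBMCs for Ccng1 in S group against C group, by -0.34 on the log2 scale (edgeR, adjusted P = 0.726), and for Aen in O group against C group, by 0.42 (adjusted P = 0.895). Both passed the unadjusted threshold of 0.05 only, which 6.8% and 5.35% of all genes tested passed in these 2 comparisons. The calls were lost in 8 and 9 of 25 alternatives.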

How the results depend on the processing

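Across all alternatives the count of genes called stayed within 1.5 times its first value in 120 cases and moved further in 44. These counts include Cdkn1a, which was chosen for its level in platelets of S group. In platelet S vs C the count stayed within that range in every alternative, with Cdkn1a among the 3 genes by the way it was chosen. There Aen lost the call in 8 of 16 alternatives and Bbc3 in 1. In PBMC S vs C the count was 0 in each, DESeq2 included. In platelet S vs O it fell from 4 to 2 with library totals, and leaving out 1 library gave 2 to 4, with 2 without each of replicates 1 to 4 of S group. In platelet O vs C leaving out 1 library gave 0 to 2, with 0 without replicate 1 of O group or replicate 4 of C group. In PBMC S vs O the count of 1 became 2 with all genes with at least 1 count, with DESeq2 and with the replicate block, 3 with all 3 groups in one fit and without replicate 1 in both groups, 5 with library totals, and 1 to 4 when 1 library was left out, with 4 without replicate 1 of O group. In PBMC O vs C the count of 1 became 2 with DESeq2 and with all 3 groups in one fit, 3 with the replicate block and without replicate 1 in both groups, 5 with library totals, and 1 to 3 when 1 library was left out, with 3 without replicate 1 of O group. In platelet C vs PBMC C library totals raised 5 to 10 and turned Ccng1 to -0.74. The first count of 2 in the tissue difference of S vs C held Ccng1 and Cdkn1a, the latter without a test. In this tissue difference all genes with at least 1 count gave 1, and leaving out 1 library gave 1 to 4. In that of O vs C the count of 1 became 0 with RLE size factors, all genes with at least 1 count and DESeq2, and 0 to 1 when 1 library was left out. For Cdkn1a and the genes first counted in each comparison, 344 values kept their side of the threshold, 53 lost the call, 6 gained it, all of Cdkn1a, and 1 reversed. The 344 hold values of Cdkn1a that its choice fixed and that test nothing. They are 16 in platelet S vs C, 16 in platelet S vs O and 25 in the tissue difference of S vs C. Among the 344, Cdkn1a, counted in neither fit, changed sign in 2 of PBMC S vs C and in 6 of the tissue difference of O vs C. The other genes, not counted at first, gained a call in 58 of 1236 values, 17 of them in PBMC S vs O, 13 in PBMC O vs C, 13 in platelet C vs PBMC C, 7 in the tissue difference of S vs C, 5 in platelet S vs O, and 1 each in platelet S vs C, platelet O vs C and the tissue difference of O vs C. In 3 of the 58, all with library totals, the sign was the opposite one, for Trp53 and Trp53inp1 in platelet C vs PBMC C (-1.18 and -1.36) and Trp53inp1 in PBMC O vs C (-0.36). Without replicate 1 of O group, Phlda3 and Trp53 (-0.67 and -0.22) were counted in PBMC O vs C, and Aen, Phlda3 and Zmat3 (0.22, 0.59 and 0.20) in PBMC S vs O. The causes were not tested. In PBMC O vs C, where the numbers did not pair the libraries by the check (r 0.0441 to 0.385), the replicate block counted Cdkn1a (0.83), Sesn2 (0.80) and Trp53 (-0.17), and 3 of 5 libraries correlated best with their own number. In platelet S vs O the block counted Phlda3 (0.87). Outside PBMC S vs O and PBMC O vs C the block changed no count by over 1.5 times. Depth of 82 to 137 Cdkn1a reads per platelet library of C group limits the precision there.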
